A study of Mus musculus with 6 samples.

Results

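The MHC class II genes described here are 10 genes chosen by symbol for their role: Ciita, the class II chains H2-Aa, H2-Ab1 and H2-Eb1, the invariant chain Cd74, the peptide editor genes H2-DMa, H2-DMb1 and H2-DMb2, and the editor's inhibitor genes H2-Oa and H2-Ob. All 10 were present among the 14481 genes of the deposited count table and all 10 passed the filter on low counts. The cells were sorted wild-type (WT) mouse CD8+ T cells. Their activation used anti-CD3 bound to the plate and anti-CD28 in solution, each at 1 µg/ml, together with 0.1 µg/ml of interleukin 2. After 1 day they received conditioned medium (CM), that is, medium holding the secreted products of cultured astrospheres, and polyadenylated RNA was sequenced after 2 further days, at day 3. In STAT3+ CM the astrospheres were pSTAT3+ (carrying phosphorylated, active STAT3) and in STAT3- CM they were pSTAT3-. Each medium had 3 libraries, every one of WT cells under the same activation. The labels name no strain, age or number of animals, and do not say whether the libraries of a group were separate cultures, so a p-value here reflects no more than the scatter among these libraries. No cells without CM were analysed here.

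MHC class II molecules are pairs of an alpha and a beta chain that carry peptides from the endosomes to the cell surface for CD4+ T cells. Ciita is the coactivator that switches these genes on; it binds no DNA itself but docks on RFX, CREB and NF-Y factors, which sit on paired promoter elements called the X box and the Y box. The invariant chain Cd74 guards the groove of newly made class II molecules, H2-DM exchanges its remnant for a peptide, and H2-O restrains H2-DM. Dendritic cells, macrophages and B cells are the usual sources of class II in the mouse. Mouse T cells, unlike activated human T cells, are generally described as making little or none.

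The promoter stretch whose letters and spacing resemble an X box and a Y box is shown for each member that had one, because class II promoters are known for this pairing and the 10 genes did not move as a block. RefSeq promoter windows (GRCm38.p6, 250 bases before to 50 bases after a start site) were matched for 7 of the 10 genes, all but Ciita, Cd74 and H2-Ab1. In 6 of the 8 windows, those of H2-Aa, H2-Eb1, H2-DMb1, H2-DMb2, H2-Oa and H2-Ob, an AAC on the gene's strand was followed 28 to 31 bases later by ATTGG, the inverted CCAAT that NF-Y recognises. Capitals mark ATTGG on the right and, on the left, either AACNNATGATG or GCAAC.
H2-Aa: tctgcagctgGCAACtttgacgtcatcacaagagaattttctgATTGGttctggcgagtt
H2-Eb1: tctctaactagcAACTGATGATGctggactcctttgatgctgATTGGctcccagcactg
H2-DMb1: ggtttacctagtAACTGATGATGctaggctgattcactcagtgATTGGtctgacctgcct
H2-DMb2: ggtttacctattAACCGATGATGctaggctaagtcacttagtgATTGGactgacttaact
H2-Oa: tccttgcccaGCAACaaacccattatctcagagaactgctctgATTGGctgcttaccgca
H2-Ob: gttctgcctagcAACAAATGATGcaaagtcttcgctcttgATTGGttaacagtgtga

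These stretches lie on chromosome 17 of GRCm38.p6, at chr17:34287855-34287914 (minus strand) for H2-Aa and, on the plus strand, at chr17:34305766-34305824 for H2-Eb1, chr17:34153087-34153146 for H2-DMb1, chr17:34145116-34145175 for H2-DMb2, chr17:34092293-34092352 for H2-Oa and chr17:34238808-34238864 for H2-Ob. The ATTGG began between 90 bases (H2-DMb2) and 43 bases (H2-Oa) upstream of the start site. The letters searched were chosen after the sequences were seen, and both strands of all 32851 windows were read. ATTGG was in 37.4% of them, GCAAC in 35.2%, and an AAC with ATTGG at that spacing in 2.49%. AACNNATGATG, which can share its AAC with GCAAC, was in 0.137% of windows, or 45, and 4 of these were H2-Eb1, H2-DMb1, H2-DMb2 and H2-Ob. The CREB-type TGACGTCA was in 1.79% of windows and, among the members, in that of H2-Aa, where it begins inside the stretch shown, after the GCAAC. The 2 windows of H2-DMa held no such spaced pair. A match is a description of these letters and no measurement of binding.

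Total counts per library ran from 43346089 to 53630514, and the 10 genes together took 5761 to 7339 counts in STAT3+ CM, against 6331 to 7712 in STAT3- CM. Levels below are in CPM, a gene's reads relative to the TMM-scaled total of its library, and log2 fold changes are STAT3+ CM over STAT3- CM with the standard error (SE) of edgeR's quasi-likelihood fit over 14319 genes. STAT3- CM replicate 3 stood farthest out on the first principal component (36.8% of the variance; score 39.6, the others -23.9 to 16.3) and STAT3+ CM replicate 1 on the second (31.1%; score -38.1, the others -19.2 to 17.5). No pair of libraries agreed within counting noise, with a chi-square per degree of freedom of at least 21.9.

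The class II genes split into a set that stood lower in STAT3+ CM and a set that stood on the higher side or near 0. Ciita, H2-Aa, H2-Eb1 and Cd74 had log2 fold changes of -0.88 to -1.74, the 5 genes of H2-DM and H2-O had values of 0.24 to 0.77, and H2-Ab1 had 0.13. None of the 10 passed an adjusted p of 0.05 in edgeR's quasi-likelihood test, where 0 of 14319 genes (0%) did. By DESeq2, which called 48 genes (0.335%), H2-Aa and Cd74 passed, both lower in STAT3+ CM, as were 0.23% of the genes.

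**Figure D1:**
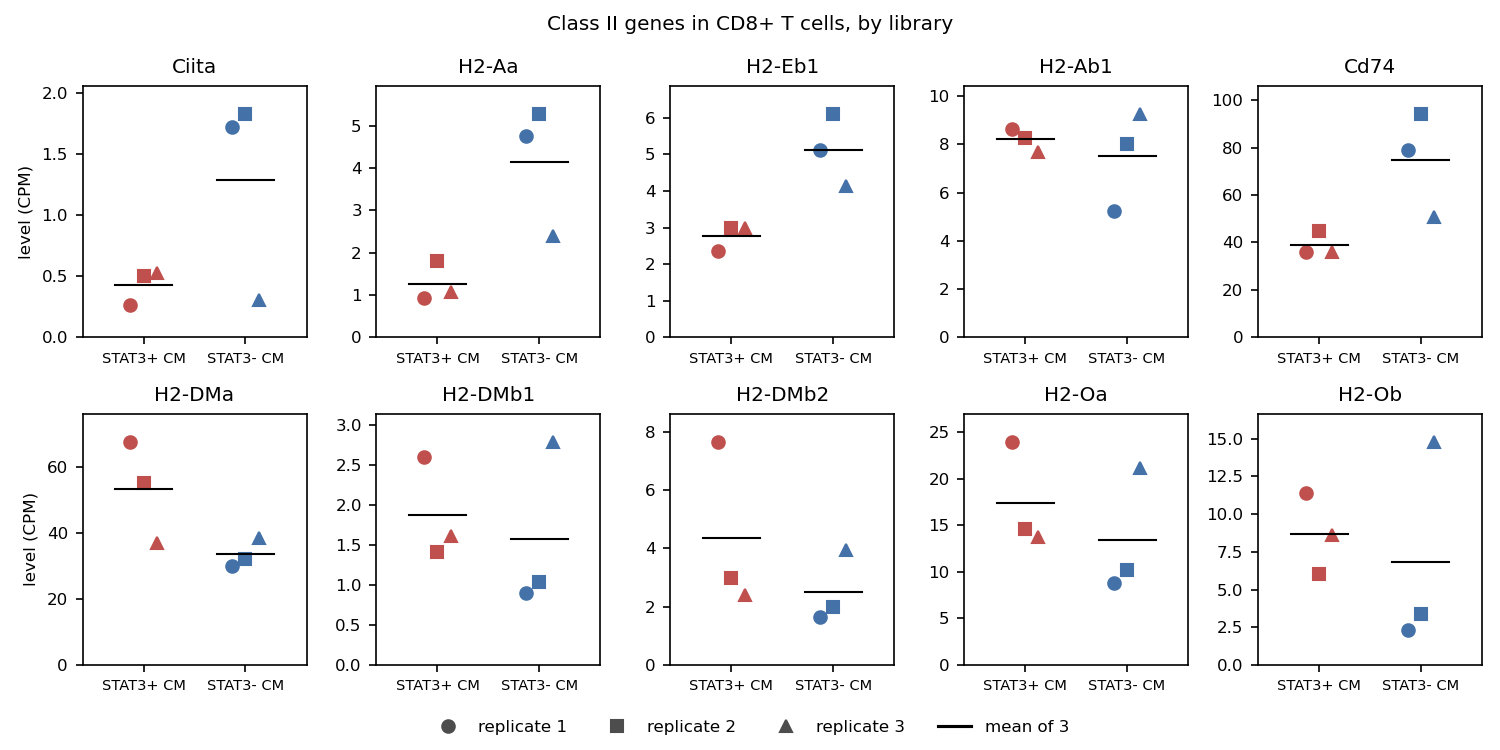
Level in CPM (linear axis from 0, a scale of its own in each panel) of the 10 genes in the 3 STAT3+ CM libraries on the left and the 3 STAT3- CM libraries on the right; symbols give the replicate and lines the mean. H2-Aa, H2-Eb1 and Cd74 are the panels in which every STAT3+ CM library lies below every STAT3- CM library, while in Ciita the STAT3- CM replicate 3 (0.303 CPM) lies among the STAT3+ CM libraries.

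Ciita, the transactivator, had the lowest level per exon length of the members. It had 0.264, 0.504 and 0.524 CPM in STAT3+ CM replicates 1 to 3 (12, 21 and 29 counts), and 1.72, 1.83 and 0.303 CPM in STAT3- CM replicates 1 to 3 (78, 86 and 14 counts). STAT3- CM replicates 1 and 2 were high and the other 4 libraries low, so the groups overlapped through STAT3- CM replicate 3. The means were 0.431 ± 0.145 CPM in STAT3+ CM, against 1.29 ± 0.852 in STAT3- CM (SD, n = 3 each). The log2 fold change was -1.56 (SE 0.59, adjusted p = 0.989 by edgeR). In bulk RNA such as this, fewer cells that carry a transcript and less of it per cell cannot be told apart.

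Of the class II chains, H2-Aa and H2-Eb1 stood lower in STAT3+ CM, whereas the direction of H2-Ab1 was not settled. H2-Aa, the alpha chain of the I-A molecule, had 0.925, 1.80 and 1.07 CPM in STAT3+ CM, against 4.77, 5.28 and 2.40 CPM in STAT3- CM. All STAT3+ CM libraries lay below all STAT3- CM libraries, and the lowest of STAT3- CM was again replicate 3. H2-Aa averaged 1.26 ± 0.471 CPM in STAT3+ CM, against 4.15 ± 1.53 CPM in STAT3- CM (SD, n = 3 each). Its log2 fold change was -1.74 (SE 0.37, adjusted p = 0.533 by edgeR), and DESeq2 gave -1.71 (SE 0.37, adjusted p = 0.00427). H2-Eb1, the beta chain of the I-E molecule, had 2.36, 2.98 and 2.98 CPM in STAT3+ CM, against 5.12, 6.11 and 4.14 CPM in STAT3- CM. Here too the groups did not overlap. The log2 fold change was -0.88 (SE 0.23, adjusted p = 0.707 by edgeR and 0.0871 by DESeq2).

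H2-Ab1, the beta chain that pairs with H2-Aa, had 8.66, 8.29 and 7.67 CPM in STAT3+ CM, against 5.23, 8.01 and 9.27 CPM in STAT3- CM. The STAT3- CM libraries held both its lowest and its highest value, and the STAT3+ CM libraries lay between them. Its log2 fold change was 0.13 (SE 0.22, adjusted p = 0.989 by edgeR), which does not show that it was equal in the groups, and it was -0.07 without STAT3- CM replicate 1.

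The ratio of counts of the 2 chains within a library does not depend on how libraries are scaled. H2-Aa had 0.107, 0.217 and 0.139 counts per H2-Ab1 count in STAT3+ CM, against 0.911, 0.660 and 0.259 in STAT3- CM. Every STAT3+ CM ratio was below every STAT3- CM ratio, with STAT3- CM replicate 3 nearest to STAT3+ CM. The means were 0.154 ± 0.0569 in STAT3+ CM, against 0.610 ± 0.329 in STAT3- CM (SD, n = 3 each). The mean log2 ratio in STAT3+ CM minus that in STAT3- CM was -1.87 (exact two-sided permutation test, p = 0.1, the smallest that 3 against 3 libraries allow). H2-Eb1 counts per H2-Ab1 count were 0.272, 0.359 and 0.388 in STAT3+ CM, against 0.979, 0.763 and 0.446 in STAT3- CM, again without overlap.

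**Figure D2:**
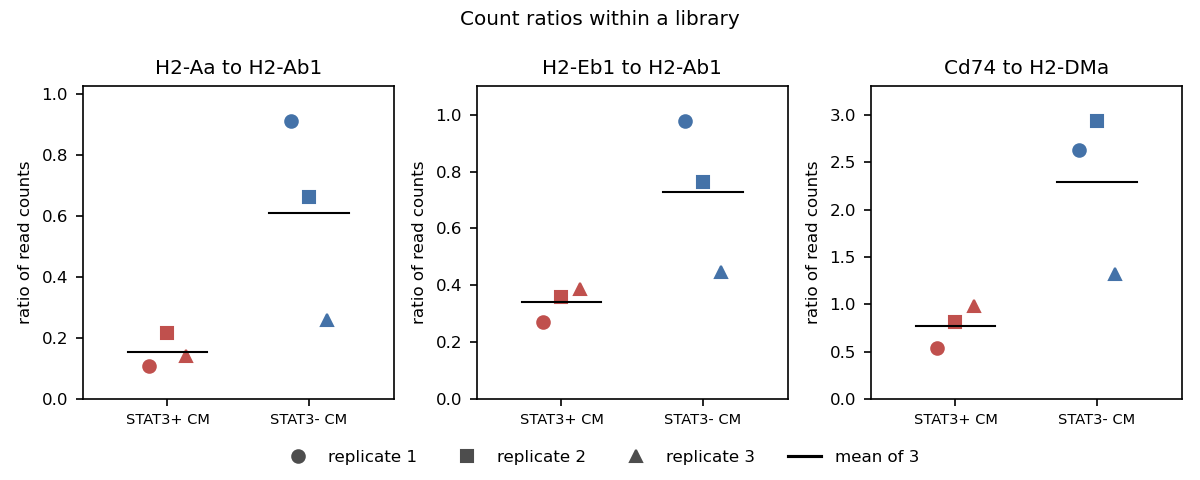
Ratio of read counts of 2 genes within each library (linear axes from 0), STAT3+ CM left and STAT3- CM right, with symbols for the replicate and lines for the mean of 3. The H2-Aa to H2-Ab1 ratio lies between 0.107 and 0.217 in STAT3+ CM and between 0.259 and 0.911 in STAT3- CM, and the Cd74 to H2-DMa ratio between 0.533 and 0.978 in STAT3+ CM and between 1.32 and 2.94 in STAT3- CM.

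Cd74, the invariant chain and the member with the highest level per exon length, had 36.1, 44.7 and 36.1 CPM in STAT3+ CM, against 79.1, 94.2 and 50.7 CPM in STAT3- CM. The groups did not overlap, and STAT3- CM replicate 3 was once more the library of its group nearest to STAT3+ CM. The means were 38.95 ± 4.98 CPM in STAT3+ CM, against 74.7 ± 22.1 in STAT3- CM (SD, n = 3 each). The log2 fold change was -0.94 (SE 0.21, adjusted p = 0.563 by edgeR and 0.0122 by DESeq2). H2-Aa, H2-Eb1 and Cd74 were the 3 members whose groups did not overlap, which held for 7.95% of all tested genes in either direction and for 4.18% with STAT3+ CM below. No member stood apart on the higher side, where 3.78% of tested genes did.

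The H2-DM genes, which encode the editor that frees the groove of the Cd74 remnant, had positive log2 fold changes. H2-DMa, its alpha chain, had 67.7, 55.0 and 36.9 CPM in STAT3+ CM, against 30.1, 32.1 and 38.5 CPM in STAT3- CM. STAT3+ CM replicates 1 and 2 were above all STAT3- CM libraries, and replicate 3 lay just below STAT3- CM replicate 3. The means were 53.2 ± 15.5 CPM in STAT3+ CM, against 33.6 ± 4.37 in STAT3- CM (SD, n = 3 each). The log2 fold change was 0.66 (SE 0.21, adjusted p = 0.983 by edgeR). Within a library Cd74 had 0.533, 0.812 and 0.978 counts per H2-DMa count in STAT3+ CM, against 2.63, 2.94 and 1.32 in STAT3- CM. This ratio was lower in every STAT3+ CM library than in every STAT3- CM library, although H2-DMa alone overlapped. Cd74 alone already did not overlap and H2-DMa leaned the other way, so the ratio is a description and no separate evidence.

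The beta chain of H2-DM is encoded by 2 neighbouring genes whose transcripts are 94.4% identical over their aligned bases, with a longest identical run of 221 bases, so reads may be misassigned between them. H2-DMb2 had 7.67, 2.98 and 2.40 CPM in STAT3+ CM, against 1.63, 1.98 and 3.94 CPM in STAT3- CM. STAT3+ CM replicate 1 was the highest, and the log2 fold change was 0.77 (SE 0.48) with it and 0.08 without it. H2-DMb1 had 2.60, 1.42 and 1.61 CPM in STAT3+ CM, against 0.905, 1.04 and 2.79 CPM in STAT3- CM, with a log2 fold change of 0.24 (SE 0.43) that was -0.06 without the same library. Both genes were low in STAT3- CM replicates 1 and 2 and high in STAT3- CM replicate 3 and STAT3+ CM replicate 1. Summed as 1 feature they had a log2 fold change of 0.59 (adjusted p = 0.989 by edgeR).

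The H2-O genes, whose product inhibits H2-DM and is best known from B cells, followed the same libraries. H2-Oa, the alpha chain, had 24.0, 14.7 and 13.7 CPM in STAT3+ CM, against 8.79, 10.3 and 21.2 CPM in STAT3- CM. H2-Ob, the beta chain, had 11.4, 6.03 and 8.63 CPM in STAT3+ CM, against 2.34, 3.41 and 14.8 CPM in STAT3- CM. In both genes STAT3- CM replicates 1 and 2 were the lowest of the 6 libraries, while replicate 3 was the highest in H2-Ob and the second highest in H2-Oa. The log2 fold changes were 0.38 (SE 0.33) for H2-Oa and 0.35 (SE 0.57) for H2-Ob, each with an adjusted p of 0.989 by edgeR. Without STAT3+ CM replicate 1 they were 0.08 for H2-Oa and 0.11 for H2-Ob, and without STAT3- CM replicate 3 they were 0.87 and 1.60. Without STAT3- CM replicate 1 they were 0.15 for H2-Oa and -0.06 for H2-Ob, so that H2-Ob changed sign.

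**Figure D3:**
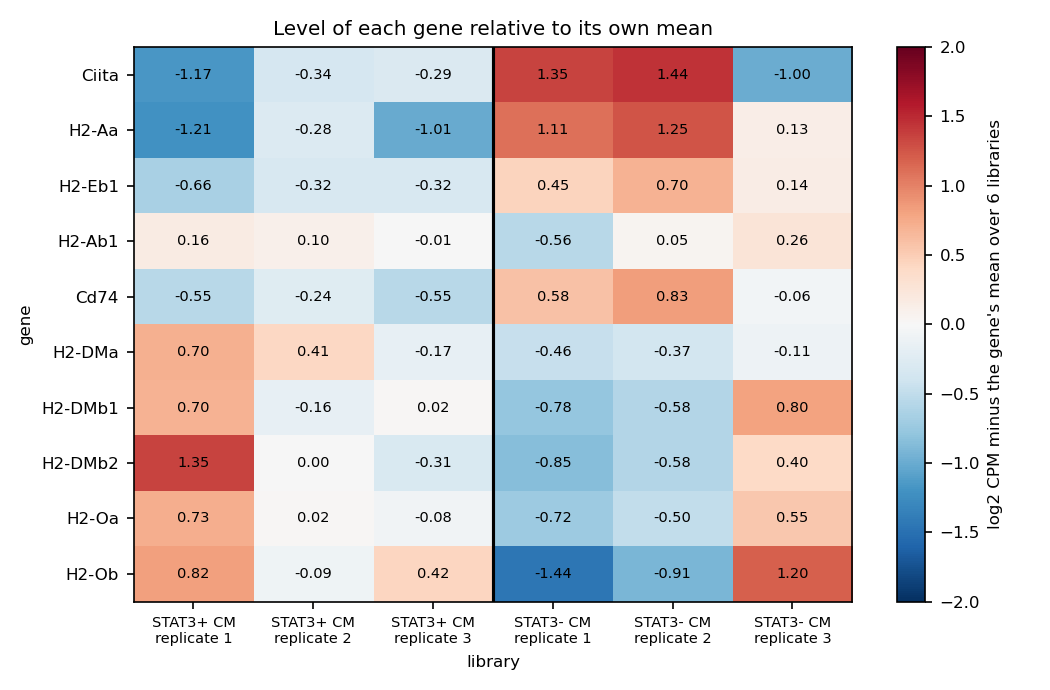
Log2 CPM of each gene (rows) in each library (columns, STAT3+ CM left of the black line and STAT3- CM right) minus that gene's mean over the 6 libraries; red is above and blue below the mean. STAT3- CM replicates 1 and 2 are above the mean in Ciita, H2-Aa, H2-Eb1 and Cd74 and below it in the 5 H2-DM and H2-O genes, whereas in STAT3- CM replicate 3 Ciita is below its mean and H2-Ob above it by 1.20.

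The order of the libraries was shared by many of the 10 genes and only partly matched the media. In 4 genes (Ciita, H2-Aa, H2-Eb1 and Cd74) STAT3- CM replicates 1 and 2 were both above the other 4 libraries, which held for 8.95% of all tested genes. In 5 genes (H2-DMa, H2-DMb1, H2-DMb2, H2-Oa and H2-Ob) they were both below them, which held for 9.11%. This split was seen in the values first, so it carries no test. Over the 6 libraries, the 6 pairs within the first set had Pearson's r of 0.826 to 0.982 (log2 CPM), the 10 pairs within the second 0.574 to 0.978 and the 20 pairs across them -0.955 to -0.627. Ciita and H2-Oa were at -0.955 (Spearman's rho -0.943), and Cd74 and H2-Aa at 0.982 (rho 1). These r values are descriptions over 6 libraries that share the 2 media and the depth of each library. The sets were picked from the same values, so the signs of r within and across them largely follow from that choice.

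By edgeR's quasi-likelihood test, 4 members were lower and 1 was higher at an unadjusted p under 0.05, where 2.3% and 1.34% of all tested genes were. The 4 were H2-Aa, Cd74, H2-Eb1 and Ciita, with values of 0.000737, 0.00112, 0.00326 and 0.0239, and the 1 was H2-DMa with 0.0092. Over all genes 521 (3.64%) were under that p, limma-voom called 0, and limma-voom with sample quality weights called 16, Cd74 among them (adjusted p = 0.0499). The median log2 fold change of the 10 members was 0.18 and that of all tested genes 0.0008; the members' median lies between the 2 sets and describes neither.

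Leaving out STAT3- CM replicate 3, edgeR called 18 of 14408 genes (0.125%), 15 of them lower (0.104%). Both H2-Aa at -2.01 (SE 0.29; edgeR adjusted p = 0.0419) and Cd74 at -1.16 (SE 0.15; edgeR adjusted p = 0.0341) were among these. Ciita then had -2.03 (SE 0.33, adjusted p = 0.0753 by edgeR) and H2-Eb1 -1.02 (SE 0.23, adjusted p = 0.203 by edgeR). On the other side H2-Ob had 1.60 (SE 0.31, adjusted p = 0.132 by edgeR), H2-DMb2 1.25 (SE 0.50), H2-DMb1 0.94 (SE 0.35), H2-Oa 0.87 (SE 0.25) and H2-DMa 0.77 (SE 0.22). At an unadjusted p under 0.05 stood 4 members lower and 5 higher, against 2.94% and 3.57% of the genes tested without that library. With any other single library left out, edgeR called no member. Adjusted p-values by edgeR were then at least 0.476 for H2-Aa and for Cd74. Both sets were described by STAT3- CM replicates 1 and 2 against the other libraries, so leaving out STAT3- CM replicate 3 widens their differences by construction. With STAT3+ CM replicate 1 left out as well, a choice made after the principal components were seen, 10 genes were called and 0 members, with adjusted p-values by edgeR of 0.0523 for Cd74, 0.059 for H2-Aa and 0.0953 for Ciita.

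**Figure D4:**
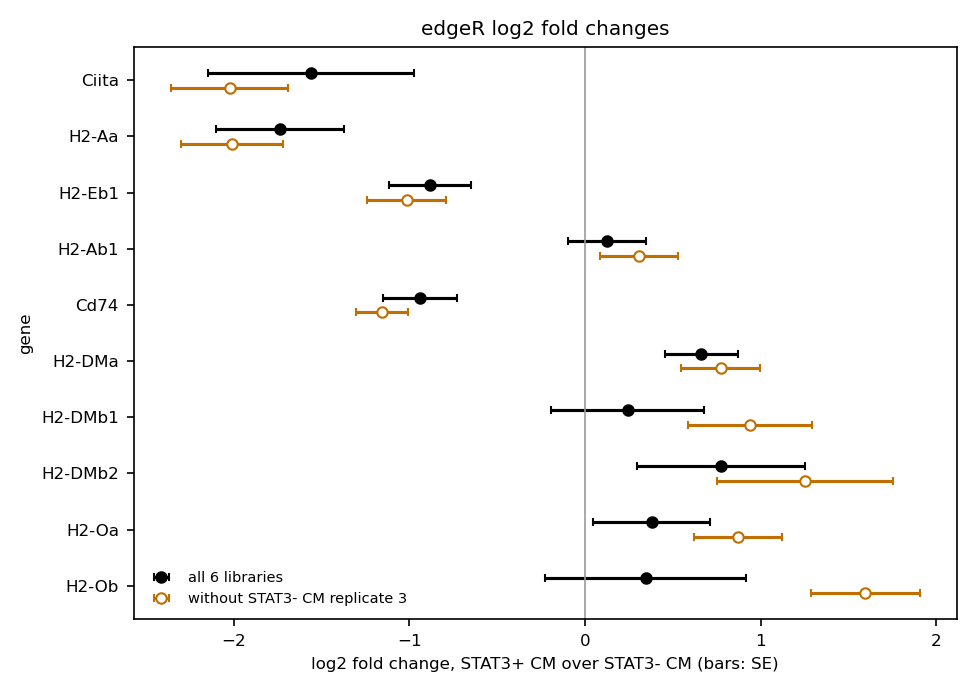
Log2 fold change of STAT3+ CM over STAT3- CM by edgeR for the 10 genes, with bars of 1 SE, from all 6 libraries (filled) and without STAT3- CM replicate 3 (open). Ciita, H2-Aa, H2-Eb1 and Cd74 lie left of 0 in both fits, and H2-Ob moves to 1.60 without that library, against 0.35 with all libraries.

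Along chromosome 17 the members run in the order H2-Oa, H2-DMa, H2-DMb2, H2-DMb1, H2-Ob, H2-Ab1, H2-Aa and H2-Eb1 in the GRCm38 RefSeq annotation, with Ciita on chromosome 16 and Cd74 on chromosome 18. The first 6 of these had positive log2 fold changes and the last pair, H2-Aa and H2-Eb1, negative ones. The positive values of H2-DMb1, H2-Ob and H2-Ab1 changed sign with 1 library left out. The genes of peptide supply to class I that lie between H2-DMb1 and H2-Ob also had positive values, namely Psmb9 (0.29, SE 0.16), Tap1 (0.10, SE 0.15), Psmb8 (0.24, SE 0.17) and Tap2 (0.12, SE 0.13). Brd2, a chromatin reader next to H2-DMa, had -0.06 (SE 0.15). Of all 14319 tested genes, 7189 had positive values.

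Set per kilobase of exon so that genes can be compared, the level of Cd74 was 27.5 ± 3.52 CPM per kb in STAT3+ CM, against 52.7 ± 15.6 in STAT3- CM (SD, n = 3 each). H2-DMa followed with 19.9 ± 5.81 and 12.6 ± 1.64 CPM per kb in STAT3+ CM and STAT3- CM, then H2-Oa with 16.05 ± 5.23 and 12.3 ± 6.22, and H2-Ab1 with 6.77 ± 0.410 and 6.19 ± 1.70 (SD, n = 3 each). The libraries of Cd74 and H2-DMa only just failed to overlap. The lowest value of Cd74 was 25.47 and the highest of H2-DMa 25.37 CPM per kb. The libraries of H2-DMa and H2-Oa overlapped, whereas those of H2-Oa and H2-Ab1 did not. H2-Aa, H2-Eb1, H2-Ob, H2-DMb2 and H2-DMb1 came next, with means over all 6 libraries of 2.40, 2.37, 2.21, 1.97 and 1.23 CPM per kb and overlapping ranges. Ciita was last at 0.104 CPM per kb, below every library of H2-DMb1. The labels name no strain, and where the H2 alleles of the mice differ from the reference genome, fewer reads of H2-Aa, H2-Ab1 and H2-Eb1 may align, which would affect their levels relative to other genes and to each other, the count ratios included.

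For scale, the class I heavy chain gene H2-K1 stood at 995.8 ± 179.7 CPM per kb in STAT3+ CM, against 911 ± 95.99 in STAT3- CM, and H2-Aa at 1.12 ± 0.417 and 3.68 ± 1.36 (SD, n = 3 each). Of 10 class I and loading genes, none passed in edgeR, 7 had positive values, and the median log2 fold change was 0.11. Psmb9 and Psmb8, subunits of the immunoproteasome, had the smallest p-values of the list.

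The factors that hold Ciita on the promoter had log2 fold changes near 0. Of 7 genes (Rfx5, Rfxap, Rfxank, Nfya, Nfyb, Nfyc and Creb1), none passed in edgeR and none had an unadjusted p under 0.05; 2 were positive and 5 negative, with a median log2 fold change of -0.11. Creb1, of the CREB family, had 97.0, 78.8 and 90.0 CPM in STAT3+ CM, against 100.1, 96.4 and 107.6 CPM in STAT3- CM (log2 fold change -0.19, SE 0.12). Nfyb, a subunit of NF-Y, had 79.7, 75.6 and 71.3 CPM in STAT3+ CM, against 67.5, 76.4 and 62.1 CPM in STAT3- CM (0.14, SE 0.12).

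Interferon gamma is the classical inducer of Ciita, and activated CD8+ T cells make it themselves. Ifng had 1042, 1037 and 990.9 CPM in STAT3+ CM, against 1151, 852 and 742 CPM in STAT3- CM. Its groups overlapped, with the highest and the lowest values both in STAT3- CM, in replicates 1 and 3. Of 9 genes from Ifng to Irf1 and Socs1, none passed in edgeR; 6 were positive and 3 negative, with a median log2 fold change of 0.25. Jak2, a kinase of the interferon gamma receptor, had 147, 162 and 206 CPM in STAT3+ CM, against 243, 197.5 and 214 CPM in STAT3- CM (log2 fold change -0.35, SE 0.15, unadjusted p = 0.0462 by edgeR). Ifngr2, the second receptor chain, had 21.2, 12.8 and 7.53 CPM in STAT3+ CM, against 9.38, 7.49 and 10.8 CPM in STAT3- CM (0.58, SE 0.33).

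Of 11 repressors and chromatin partners of Ciita and its promoter, none passed in edgeR; 2 were positive and 9 negative, with a median log2 fold change of -0.14. The smallest p-values were those of the acetyltransferase genes Ep300 (-0.36, SE 0.21) and Crebbp (-0.24, SE 0.18). Of 8 tested genes of class II antigen processing and turnover, none passed in edgeR and 6 were positive, with a median of 0.08. Cd83, which stabilises surface class II, had 38.2, 69.3 and 67.2 CPM in STAT3+ CM, against 91.3, 89.8 and 75.0 CPM in STAT3- CM. Its groups did not overlap (log2 fold change -0.55, SE 0.21, unadjusted p = 0.0241 by edgeR). The endosomal protease gene Ctsb was next by p (0.14, SE 0.12).

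Among 6 genes that act beside class II at the surface of presenting cells, none passed in edgeR and 2 had an unadjusted p under 0.05, both lower. Cd40, the receptor through which T cells license presenting cells, had 0.132, 0.264 and 0.289 CPM in STAT3+ CM (6, 11 and 16 counts), against 0.618, 1.28 and 0.325 CPM in STAT3- CM (28, 60 and 15 counts). Its log2 fold change was -1.67 (SE 0.56, unadjusted p = 0.0135 by edgeR). Icosl, the ligand of ICOS, had 1.23, 1.25 and 1.07 CPM in STAT3+ CM, against 3.84, 2.58 and 1.17 CPM in STAT3- CM (-1.10, SE 0.40, unadjusted p = 0.0206 by edgeR). In both, as in Ciita, STAT3- CM replicates 1 and 2 were the high libraries and STAT3- CM replicate 3 lay near STAT3+ CM.

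The cells carried the transcripts of CD8+ T cells in both media, with all 8 of that list's genes tested and a summed level of 2892 to 3729 CPM in STAT3+ CM, against 2878 to 3119 in STAT3- CM. Cd8a averaged 908 ± 138 CPM in STAT3+ CM, against 847 ± 80.3 in STAT3- CM, and Lck 561 ± 28.4 and 516 ± 21.5 (SD, n = 3 each). Markers of cells that normally carry class II were then set beside the members, with no class II gene in the lists. Of 12 B cell markers 3 were among the deposited genes, with a summed level of 309 to 349 CPM in STAT3+ CM, against 279.6 to 328 in STAT3- CM, nearly all of it Ighm (318 ± 20.4 CPM in STAT3+ CM, against 296 ± 25.9 CPM in STAT3- CM, SD, n = 3 each). The defining B cell genes Ms4a1, Cd79a, Pax5, Ebf1, Blk, Fcer2a, Cr2 and Cd22 were not among them, although H2-Oa and H2-Ob were. Cd79b averaged 11.2 ± 0.530 CPM in STAT3+ CM, against 8.60 ± 1.82 in STAT3- CM (log2 fold change 0.39, SE 0.19).

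Of 12 dendritic cell markers 6 were among the deposited genes, with a summed level of 649.5 to 697 CPM in STAT3+ CM, against 517 to 861 in STAT3- CM, led by Ccr7 (507 ± 14.8 CPM in STAT3+ CM, against 464 ± 169.6 CPM in STAT3- CM, SD, n = 3 each), which T cells also express, and by the widely expressed Cst3. Flt3, Xcr1, Clec9a, Siglech, Cd209a and Clec10a were not among them. Of the 6, 3 were lower at an unadjusted p under 0.05, as were 2.3% of all tested genes, and none passed in edgeR. The 3 were Fscn1 (log2 fold change -1.22, SE 0.28), Zbtb46 (-0.61, SE 0.22) and Cst3 (-0.30, SE 0.12). The groups of Batf3 (-0.14, SE 0.19), Ccr7 (0.13, SE 0.22) and Itgax (-0.04, SE 0.29) overlapped. Fscn1, an actin bundler of mature dendritic cells, had 6.54, 9.80 and 13 CPM in STAT3+ CM, against 23.5, 29.8 and 15.5 CPM in STAT3- CM, so its groups did not overlap, as with Cd74 and H2-Aa. Zbtb46, a transcription factor of conventional dendritic cells, had 7.58, 9.97 and 13.1 CPM in STAT3+ CM, against 13.97, 14.1 and 18.9 CPM in STAT3- CM, also without overlap. It was highest in STAT3- CM replicate 3, the library of its group in which Cd74 and H2-Aa were lowest. Itgax, the CD11c integrin chain, had 0.991, 0.721 and 1.05 CPM in STAT3+ CM, against 1.02, 0.766 and 1.08 CPM in STAT3- CM, with overlapping groups. The part of such cells in the levels of the members was not tested.

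Of 12 monocyte and macrophage markers 5 were among the deposited genes, with a summed level of 70.4 to 105 CPM in STAT3+ CM, against 81.1 to 89.3 in STAT3- CM. Nearly all of it was Ctss (84.7 ± 17.2 CPM in STAT3+ CM, against 80.4 ± 3.82 CPM in STAT3- CM, SD, n = 3 each), followed by Cd68. Csf1r, Fcgr1, Itgam, C1qa, C1qb and C1qc were not among them. Adgre1, the F4/80 antigen, was too low to be tested, with 1, 6 and 7 counts in STAT3+ CM, against 23, 20 and 4 counts in STAT3- CM. These few counts were highest in the libraries highest in Ciita, STAT3- CM replicates 1 and 2. None of the other monocyte and macrophage markers present had both of these libraries highest. Fscn1 of the dendritic cell list did, as did Cd40lg of the CD4 T cell list (2.01 and 1.02 CPM, the others at most 0.991). Cd68 was highest in STAT3- CM replicate 3 (440 counts, against 144 and 133 counts in STAT3- CM replicates 1 and 2). CD4 T cell markers summed to 12.9 to 18.3 CPM in STAT3+ CM, against 9.92 to 24.0 in STAT3- CM, with Zbtb7b and Foxp3 the most abundant. NK cell markers summed to 122 to 134 CPM in STAT3+ CM, against 104 to 138.5 in STAT3- CM, nearly all of it Eomes. Klrb1c was next and averaged 1.41 CPM in STAT3+ CM, against 1.52 in STAT3- CM. Of 7 astrocyte and neural markers Aldh1l1 and Nes were present, at a sum of 1.49 to 2.75 CPM in STAT3+ CM, against 1.57 to 2.60 in STAT3- CM, and Gfap, Aqp4, Slc1a3, S100b and Sox2 were not among the deposited genes.

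Among 9633 other genes with a mean of at least 5 CPM, those most like Cd74 over the 6 libraries by Pearson's r of log2 CPM were Ms4a6c (0.969), Pla2g4f (0.968), Zdhhc2 (0.966), Ptcd1 (0.966) and Fut7 (0.964). Those most like H2-Aa were Fut7 (0.979), Ms4a6c (0.976), Il1r2 (0.972), Opa3 (0.970) and Pla2g4f (0.960). With 6 libraries and so many genes, such values are a ranking only. Fut7, the fucosyltransferase that builds selectin ligands, averaged 3.71 CPM in STAT3+ CM, against 7.42 in STAT3- CM (log2 fold change -1.01). Il1r2, the decoy receptor of interleukin 1, averaged 2.43 CPM in STAT3+ CM, against 7.89 in STAT3- CM (-1.71). Pla2g4f, a phospholipase gene, averaged 3.23 CPM in STAT3+ CM, against 7.09 in STAT3- CM (-1.13), and Ms4a6c 5.76 and 7.96 (-0.47). The log2 fold changes of Zdhhc2 (-0.44), Ptcd1 (-0.15) and Opa3 (-0.14) were nearer to 0.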

How the data were processed

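The authors deposited read counts, whole numbers for each gene and library, and these were used unchanged. Tools and build in the submitters' processing notes were Cufflinks 2.2.1, TopHat2 2.0.10, SAMtools 0.1.19, Bowtie 1.0.0, FastQC and the GRCm39 genome. How reads were assigned to genes (program, annotation, strand) is not given in the sources used here; reads of near-identical or overlapping genes may be misassigned. The lowest gene total was 40, so genes below it were missing from the table.

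Counts were filtered with filterByExpr (162 genes left out), scaled by TMM (factors 0.9605 to 1.06) and tested with the quasi-likelihood method of edgeR 4.0.16 (robust setting, R 4.3.3). Two-sided p-values received the Benjamini-Hochberg adjustment across 14319 genes, with a threshold of 0.05. The SE was obtained by dividing the size of the log2 fold change by the root of its F statistic. Log2 CPM used a prior count of 2. The median biological coefficient of variation was 17%. Alternatives used DESeq2 1.42.0, limma 3.58.1, other scalings and filters, the replicate number as a block, H2-DMb1 and H2-DMb2 summed, and each library left out. The workflow was tested on simulated counts. Exon lengths and transcripts came from GENCODE M21 (GRCm38), and transcripts were aligned with Biopython 1.88. An exon length was the union of all annotated exons of a gene, which can exceed the transcript the cells make.

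The 10 genes, the gene lists and the tests were chosen with earlier results of these data known. Named genes were the members, the 2 smallest p-values of each pathway list, the 2 most abundant genes and the missing defining genes of each marker list, and the 5 genes most like Cd74 and H2-Aa. Other genes were picked after their values were seen. Fscn1, Zbtb46, Batf3, Itgax, Adgre1 and Ifng were named for their role. Cd40lg was named for its order of libraries, and Psmb9, Tap1, Psmb8, Tap2 and Brd2 for their place on chromosome 17.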

Additional observations from a re-analysis of the deposited data

How the results depend on the processing

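Over 18 alternative settings Ciita, H2-Aa, H2-Eb1 and Cd74 kept a negative and H2-DMa, H2-DMb2 and H2-Oa a positive log2 fold change wherever they were fitted. H2-Aa, H2-Eb1, Cd74 and H2-DMa had an unadjusted p under 0.05 in each of the 18. Of 178 log2 fold changes (the summed H2-DMb pair counted as 1 gene) 4 changed sign, each with 1 library left out. H2-DMb1 was -0.0562 without STAT3+ CM replicate 1 and -0.0318 without STAT3- CM replicate 1, where H2-Ab1 was -0.0747 and H2-Ob -0.0614. With each library left out in turn, log2 fold changes ran from -0.0562 to 0.94 for H2-DMb1, from -0.0747 to 0.31 for H2-Ab1 and from -0.0614 to 1.60 for H2-Ob. The count of all genes called, 0 by edgeR, was 48 with DESeq2, 16 with limma-voom with sample quality weights, 10 without both libraries that lay farthest out, and 0 to 18 with each library left out. The count of members called was 2 with DESeq2, 1 with sample quality weights and 0 to 2 with each library left out. Without STAT3- CM replicate 1 edgeR called 1 gene, no member. Adjusted p-values over the alternatives ran from 0.00427 to 1 for H2-Aa and from 0.0122 to 1 for Cd74. The members' median log2 fold change ran from -0.07 to 0.54, and the log2 difference of the H2-Aa to H2-Ab1 ratio from -2.39 to -1.49, with each library left out. In these last fits the smallest exact p is 0.2. Ciita and Adgre1 rest on few reads, which limits their precision. The causes of these changes were not tested.

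Equal replicate numbers gave no clear pairing of libraries, and 3 libraries per group are too few to exclude one. After group means were removed, equal numbers correlated at -0.261, 0.281 and 0.182 across genes. Of the 6 libraries, 2 correlated best with their own number. With the replicate block edgeR called 0 genes and 0 members, and the members' median log2 fold change was 0.23.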
